A study of Mus musculus with 6 samples.

Results

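The serpins (serine protease inhibitors) were examined in irradiated skin of mice that lack the E3 ubiquitin ligase Cbl-b. A gene was taken as a member where a transcript cluster, the array's gene-level unit, carried exactly 1 gene symbol and that symbol was Serpin followed by a clade letter from a to i and a number. This gave 48 genes, each with 1 transcript cluster of its own, out of 35556 transcript clusters on the array. By clade, a branch of the family tree, 15 belonged to clade A, 24 to clade B and 9 to clades C to I.
RNA came from dorsal skin of BL6 mice, 3 Cbl-b-/- (clb-b -/- in the sample labels) and 3 wild type (WT), with 1 Affymetrix Mouse Gene 1.0 ST array per mouse. All 6 mice had been shaved and had received UVB once, at 80 mJ/cm2, and skin was collected 24 h later. The mice were matched for sex and age, the age itself and the design of the mutant allele are not given in the sources used here, and whole skin was taken, so cells of every layer contributed RNA. Unirradiated skin was not analysed here, so the values compare the genotypes after UVB and not the response to UVB.
Serpins fold with an exposed loop that a protease cleaves as if it were a substrate, after which the serpin snaps into a new shape and holds the protease in an inactive covalent complex. Clade A serpins are mostly secreted, many of them by the liver, while clade B serpins lack a classical signal peptide and mostly act inside cells. In skin, keratinocytes make many clade B serpins, which are known for restraining proteases of the epidermis and of infiltrating leukocytes. A few members, among them the collagen chaperone Hsp47, have lost protease inhibition.

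Few serpins separated irradiated Cbl-b-/- skin from irradiated WT skin. At the thresholds of the study (an unadjusted p under 0.05, here from limma, and a difference of at least 1.5-fold) Serpina1c, an alpha1-antitrypsin gene, was higher in Cbl-b-/- skin, and Serpinb6d, an intracellular clade B serpin, was lower. These 2 of 48 genes are 4.17% of the serpins, against 1.22% of all transcript clusters (0.276% higher and 0.945% lower) and 0.496% of the 21789 transcript clusters with 1 gene symbol. After Benjamini-Hochberg adjustment over all transcript clusters, 0 serpins passed an adjusted p of 0.05 in limma, against 0.00281% of all transcript clusters, and 4 had an unadjusted p under 0.05 (Serpina1c, Serpinb6d, Serpind1 and Serpina3n), 8.33% against 6.55% of all transcript clusters. The 3 Cbl-b-/- arrays did not overlap the 3 WT arrays in 6 serpins, 5 higher and 1 lower, which is 12.5%, against 13.5% of all transcript clusters (8.66% higher and 4.89% lower).
The log2 fold change (Cbl-b-/- minus WT) was above 0 in 33 of 48 serpins, 68.8%, against 55.8% of all transcript clusters and 58.4% of those with 1 gene symbol. Its median was 0.057 over the serpins and 0.020 over all transcript clusters. The median size of the difference, regardless of sign, was 0.14 over the serpins and 0.10 over all transcript clusters. By clade the median log2 fold change was 0.086 in clade A, 0.055 in clade B and 0.019 in clades C to I.

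**Figure D1:**
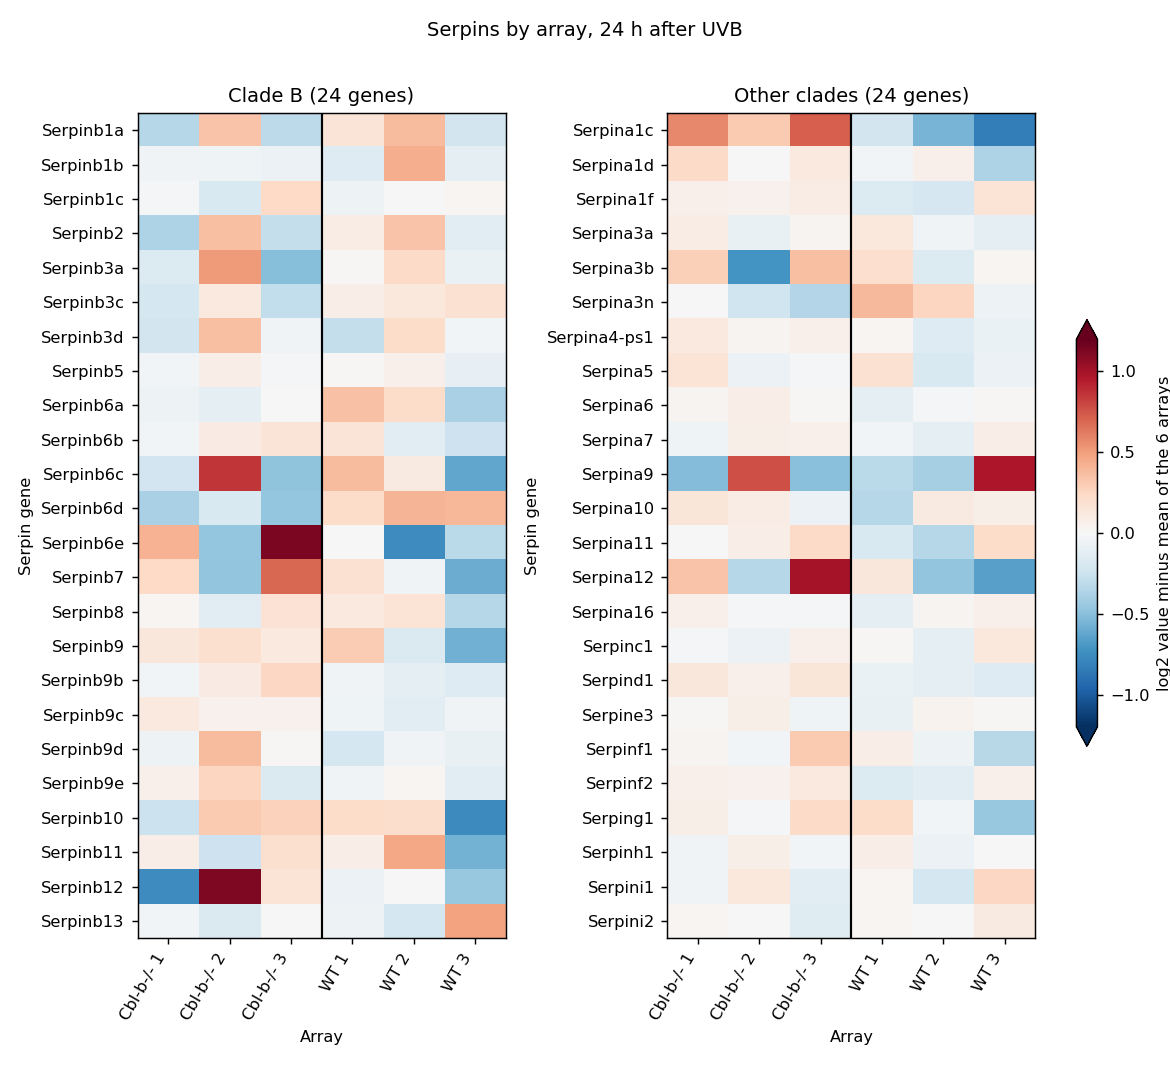
Each cell is the normalized log2 value of 1 serpin (vertical axis) on 1 array (horizontal axis, Cbl-b-/- left of the line and WT right of it) minus that gene's mean over the 6 arrays, red above and blue below the mean. Serpina1c is red on all 3 Cbl-b-/- arrays and blue on all 3 WT arrays, and Serpinb6d shows the opposite. In Serpinb12, Serpinb6e and Serpina12 the strongest red sits on 1 Cbl-b-/- array. Their lowest values, in blue, sit on Cbl-b-/- array 1 (Serpinb12), WT array 2 (Serpinb6e) and WT array 3 (Serpina12). Serpina9 is red on 1 array of each genotype.

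Cblb itself, the gene inactivated in the mutant, read 8.61, 8.69 and 8.61 on the Cbl-b-/- arrays, against 9.90, 9.66 and 9.72 on the WT arrays (log2 fold change -1.12, standard error 0.09, limma adjusted p = 0.0782). Array medians lay between 6.30 and 6.34, and the arrays correlated with each other at 0.980 to 0.993 across transcript clusters. Precision is limited by having 3 arrays per genotype, with which the smallest two-sided p of an exact permutation test is 0.10. WT array 3 stood apart in the 24 measured hair follicle markers, 0 of them past the thresholds, whose median level was 5.72, 6.42 and 7.06 on Cbl-b-/- arrays 1 to 3, against 5.48, 5.71 and 8.96 on WT arrays 1 to 3. WT array 3 was also the lowest of the 6 arrays in 17 of the 48 serpins, more often than any other array. Without it, Serpina1c and Serpinb6d met the thresholds with log2 fold changes of 0.93 and -0.66, and the median of the serpins was 0.062. The 10 measured markers of epidermal keratinocytes lay well above the array medians on every array, with median levels of 10.96 to 11.52 on Cbl-b-/- arrays and 10.88 to 11.35 on WT arrays.
Many serpins lay at the dim end of the array. Of the 48, 20 had a mean below 4.78, the lower quartile of all transcript clusters, and 15 had a mean at or above the median transcript cluster (6.32). The table has no detection call, so a level below the lower quartile was not shown to lie above background. In whole skin, fewer cells of a type and less RNA per cell cannot be told apart.

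Serpina1c is 1 of the mouse genes for alpha1-antitrypsin, the plasma inhibitor of neutrophil elastase that the liver secretes. Its normalized log2 values were 4.03, 3.77 and 4.17 in Cbl-b-/- skin, against 3.23, 2.89 and 2.62 in WT skin. Every Cbl-b-/- array lay above every WT array, and all 6 values lay below the lower quartile. The means were 3.99 ± 0.20 in Cbl-b-/- and 2.92 ± 0.31 in WT skin (SD, n = 3 each). The fitted difference was 1.08 (log2, standard error 0.18, limma unadjusted p = 0.000711, adjusted p = 0.432), a 2.11-fold higher value. Refits on 5 arrays gave 0.93 to 1.24, and Serpina1c met the thresholds each time.
The near copies of Serpina1c did not separate the genotypes. Serpina1d read 4.27, 4.03 and 4.15 in Cbl-b-/- skin, against 4.0, 4.10 and 3.67 in WT skin, and the groups overlapped (0.23, standard error 0.13). Serpina1f, a more distant relative, read 4.31, 4.30 and 4.33 in Cbl-b-/- skin, against 4.08, 4.04 and 4.41 in WT skin, where WT array 3 was the highest of all 6. A pair of further transcript clusters carries all of Serpina1a to Serpina1e in common. The first of them averaged 4.95 ± 0.11 in Cbl-b-/- and 4.79 ± 0.16 in WT skin, and the other 5.91 ± 0.24 in Cbl-b-/- and 5.64 ± 0.42 in WT skin (SD, n = 3 each). Both overlapped between the genotypes (log2 fold changes 0.16 and 0.27). Probes of 1 alpha1-antitrypsin gene may also bind transcripts of its near copies, so the split between these genes is uncertain. The 8 measured hepatocyte markers, with 0 past the thresholds, had median levels of 5.48 to 6.04 on Cbl-b-/- arrays and 5.77 to 5.88 on WT arrays. Their summed level on the log2 scale varied more, with 8.85, 8.66 and 9.91 on Cbl-b-/- arrays 1 to 3, against 11.03, 9.43 and 8.92 on WT arrays 1 to 3. The part of these markers in the Serpina1c value was not tested.
Because Serpina1c and Serpina1d are so alike, the stretch before each gene's start is shown for both (RefSeq, GRCm38.p6, 250 bases, chr12:103904951-103905200 and chr12:103773634-103773883, minus strand). Capitals mark a match to TGANTCA, a loose form of the AP-1 element, whose middle base is usually C or G and was left free here. It was searched on both strands, as were the TATA box (letters TATAAA) and the STAT element (letters TTCNNNGAA).
Serpina1c: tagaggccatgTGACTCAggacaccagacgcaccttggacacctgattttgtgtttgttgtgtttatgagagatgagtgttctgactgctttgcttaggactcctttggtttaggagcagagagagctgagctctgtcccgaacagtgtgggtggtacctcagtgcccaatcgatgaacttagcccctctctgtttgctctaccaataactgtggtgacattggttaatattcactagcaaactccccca
Serpina1d: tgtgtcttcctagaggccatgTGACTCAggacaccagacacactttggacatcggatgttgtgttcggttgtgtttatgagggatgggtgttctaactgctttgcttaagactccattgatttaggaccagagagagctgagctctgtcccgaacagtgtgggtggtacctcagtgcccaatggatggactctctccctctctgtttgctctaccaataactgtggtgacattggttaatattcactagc
When aligned, 220 of 261 columns matched, an identity of 84.3%. Each of the stretches held 1 AP-1 match, TGACTCA, near its upstream end, and no match to the other motifs.

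Serpina3n, the acute-phase relative of human antichymotrypsin that inhibits leukocyte elastase and granzyme B, had the highest mean of clade A. It read 12.16, 11.93 and 11.82 in Cbl-b-/- skin, against 12.56, 12.43 and 12.11 in WT skin. The groups overlapped, since Cbl-b-/- array 1 exceeded WT array 3. The log2 fold change was -0.40 (standard error 0.15, unadjusted p = 0.0313 by limma, 95% interval -0.75 to -0.049), which did not reach 1.5-fold. It was -0.53 without WT array 3 and -0.30 without WT array 1, and the unadjusted p was above 0.05 without any 1 of Cbl-b-/- arrays 2 and 3 and WT arrays 1 and 2 (0.0768 to 0.0982 by limma) and in the per-row test (0.0725). Neutrophil markers, 7 measured and 0 past the thresholds, had median levels of 7.07 to 9.5 on Cbl-b-/- arrays and 8.35 to 8.83 on WT arrays, and their part in the Serpina3n value was not tested. Of the 11 listed antichymotrypsin-related genes, 3 had a transcript cluster of their own and 0 met the thresholds. Serpina3b averaged 9.72 ± 0.60 in Cbl-b-/- and 9.76 ± 0.19 in WT skin, and Serpina3a 4.58 ± 0.09 in Cbl-b-/- and 4.55 ± 0.12 in WT skin (SD, n = 3 each).
The remaining clade A genes include the corticosteroid carrier Serpina6, the thyroxine carrier Serpina7 and the protein C inhibitor Serpina5, all with means under the lower quartile and log2 fold changes between 0.048 and 0.086. Serpina4-ps1, a pseudogene named here after its values were seen, read 4.70, 4.62 and 4.65 in Cbl-b-/- skin, against 4.61, 4.43 and 4.51 in WT skin. The groups lay apart by 0.01, and the log2 fold change was 0.14 (standard error 0.081).

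Serpinb6d belongs to a group of mouse copies related to human SERPINB6, an inhibitor of cathepsin G. It read 5.10, 5.31 and 5.02 in Cbl-b-/- skin, against 5.71, 5.90 and 5.89 in WT skin. Every Cbl-b-/- array lay below every WT array. The means were 5.14 ± 0.15 in Cbl-b-/- and 5.83 ± 0.11 in WT skin (SD, n = 3 each). The fitted difference was -0.69 (log2, standard error 0.11, limma unadjusted p = 0.000465, adjusted p = 0.349), a WT level 1.61-fold that of Cbl-b-/- skin. In refits on 5 arrays it stayed between -0.77 and -0.63 and past the thresholds. All 6 values lay above the lower quartile of the array and below its median transcript cluster.
The 4 other Serpinb6 genes overlapped between the genotypes. Serpinb6a, the mouse counterpart of human SERPINB6, read 9.61, 9.55 and 9.67 in Cbl-b-/- skin, against 10.02, 9.89 and 9.28 in WT skin, where WT arrays 1 and 2 were above and WT array 3 below all Cbl-b-/- arrays. Serpinb6b averaged 5.63 ± 0.09 in Cbl-b-/- and 5.48 ± 0.21 in WT skin (SD, n = 3 each). Serpinb6e had the widest difference of clade B, with 5.30, 4.42 and 6.01 in Cbl-b-/- skin, against 4.88, 4.13 and 4.56 in WT skin. Cbl-b-/- array 2 lay below WT arrays 1 and 3, and the log2 fold change of 0.72 (standard error 0.40) did not pass (unadjusted p = 0.122 by limma). It was 0.33 without Cbl-b-/- array 3, and it was 1.13 and met the thresholds without Cbl-b-/- array 2 (unadjusted p = 0.00929 by limma). The Serpinb6 genes are near copies that lie together on chromosome 13, and probes may bind more than 1 of them, so the split between them is uncertain.
The promoter of Serpinb6d is printed because the gene was the only serpin called lower, from the first of its 2 listed starts (RefSeq, GRCm38.p6, chr13:33661155-33661404, plus strand). It held no match to the AP-1, TATA or STAT letters on either strand, so all of it stands in lower case.
Serpinb6d: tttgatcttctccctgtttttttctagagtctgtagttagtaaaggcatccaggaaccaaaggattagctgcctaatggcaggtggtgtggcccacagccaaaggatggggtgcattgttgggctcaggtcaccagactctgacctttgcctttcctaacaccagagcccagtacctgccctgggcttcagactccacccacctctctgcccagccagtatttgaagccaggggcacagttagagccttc

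**Figure D2:**
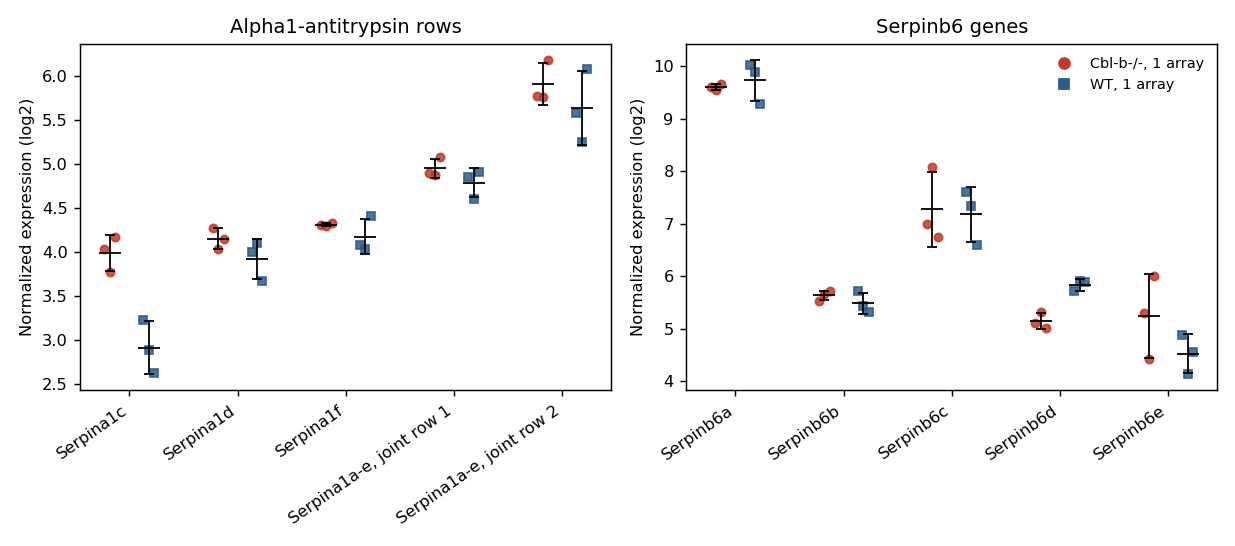
Normalized log2 expression (vertical axis) of the alpha1-antitrypsin transcript clusters (left, with the pair of joint transcript clusters of Serpina1a to Serpina1e) and of the Serpinb6 genes (right), with circles for Cbl-b-/- and squares for WT, 1 point per array, and bars with whiskers for mean and SD of 3. Only Serpina1c, at 3.99 in Cbl-b-/- and 2.92 in WT skin, and Serpinb6d, at 5.14 in Cbl-b-/- and 5.83 in WT skin, separate the genotypes.

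Of 13 measured granule protease inhibitors of clade B, 0 were higher and 1 (Serpinb6d) was lower at the thresholds, where 0.276% of all transcript clusters were higher and 0.945% lower. Their median log2 fold change was 0.099, against 0.020 over all transcript clusters. Serpinb9, the intracellular inhibitor of granzyme B, read 5.68, 5.74 and 5.66 in Cbl-b-/- skin, against 5.85, 5.37 and 4.97 in WT skin. The Cbl-b-/- arrays lay within 0.08 of each other and inside the WT range, and the log2 fold change of 0.30 (standard error 0.21) was 0.087 without WT array 3. Its near copies Serpinb9b and Serpinb9c, named after their values were seen, did not overlap between the genotypes, with 4.98 ± 0.14 in Cbl-b-/- and 4.77 ± 0.06 in WT skin for Serpinb9b, and 3.92 ± 0.04 in Cbl-b-/- and 3.78 ± 0.05 in WT skin for Serpinb9c (SD, n = 3 each). For Serpinb9b the groups barely parted, with a lowest Cbl-b-/- value of 4.84 and a highest WT value of 4.83. Neither gene passed in limma, with log2 fold changes of 0.21 (standard error 0.097) and 0.15 (standard error 0.074). Serpinb9d and Serpinb9e, on their own transcript clusters, stood at log2 fold changes of 0.22 and 0.099, while 3 joint transcript clusters of Serpinb9d to Serpinb9g stood between -0.059 and -0.047, and all of these overlapped between the genotypes. Serpinb1a, an inhibitor of neutrophil elastase and cathepsin G, averaged 8.13 ± 0.39 in Cbl-b-/- and 8.34 ± 0.30 in WT skin (SD, n = 3 each).

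The clade B serpins of squamous epithelium, which lie mostly in the cluster on chromosome 1, included 0 of 10 measured genes past the thresholds. Serpinb5, maspin, a clade B member without protease inhibition, had the highest mean of its clade, at 11.35, 11.46 and 11.36 in Cbl-b-/- skin, against 11.39, 11.44 and 11.28 in WT skin. Its groups interleaved within 0.18, and the 95% interval of its difference, -0.18 to 0.22, lay inside 1.5-fold (0.58 on the log2 scale). Serpinb2, the urokinase inhibitor PAI-2 of keratinocytes and macrophages, read 10.48, 11.21 and 10.57 in Cbl-b-/- skin, against 10.94, 11.19 and 10.72 in WT skin. The highest Serpinb2 value fell on Cbl-b-/- array 2 and its lowest on Cbl-b-/- array 1, and the difference was -0.19 (log2, standard error 0.22, 95% interval -0.72 to 0.34). The 8 measured markers of activated keratinocytes, 0 past the thresholds, had median levels of 9.84, 11.27 and 9.0 on Cbl-b-/- arrays 1 to 3 and 10.54, 10.87 and 10.22 on WT arrays 1 to 3, so they too were highest on Cbl-b-/- array 2. Their median log2 fold change was -0.46, with 8 of 8 below 0. Among them, S100a8 and S100a9 also stand on the list of neutrophil markers. The part of these markers in the Serpinb2 values was not tested.
Serpinb3a, related to the human squamous cell carcinoma antigens, lay at the dim end, with 2.82, 3.50 and 2.48 in Cbl-b-/- skin, against 3.0, 3.22 and 2.91 in WT skin. Both its highest and its lowest value were on Cbl-b-/- arrays. Serpinb8, an inhibitor of furin in human cells, averaged 8.61 ± 0.15 in Cbl-b-/- and 8.56 ± 0.28 in WT skin, and Serpinb13, an inhibitor of cathepsins L and K in humans, 4.36 ± 0.09 in Cbl-b-/- and 4.49 ± 0.37 in WT skin (SD, n = 3 each).
Of the 11 genes of the chromosome 1 cluster, 10 had a promoter in the RefSeq table, and 7 of these held the loose AP-1 letters TGANTCA within 250 bases before a start, against 2 of 10 in the chromosome 12 cluster and 0 of 12 in the chromosome 13 cluster. Counted by window, the share was 6.75% of all 32851 promoter windows and 20.4% of the 49 serpin windows. A gene can have more than 1 window, so shares of genes and of windows are not like for like. So that the matches of these related neighbours can be compared, the stretch around the first match of each of the 7 is shown with the match in capitals (GRCm38.p6, plus strand, in chromosomal order).
Serpinb5 (chr1:106861025-106861051): aagttgggccTGAATCAtgtcttccaa
Serpinb12 (chr1:106934394-106934420): aaaaacaatcTGATTCAcgatcattat
Serpinb11 (chr1:107362123-107362149): aagtatagtgTGATTCAgaaagcacag
Serpinb7 (chr1:107422634-107422660): agggagtgtcTGAGTCAgaggctttat
Serpinb2 (chr1:107511319-107511345): agtaaaatgtTGAATCAtacaaagaat
Serpinb10 (chr1:107528939-107528965): cttgtgaaagTGAATCAagggtggggc
Serpinb8 (chr1:107589973-107589999): gtgggaagtgTGAGTCAcagagtgttc
The matches differ in the flanks and in the free base, which was G in Serpinb7 and Serpinb8 and A or T in the others shown. Only Serpinb7 and Serpinb8 thus held the stricter AP-1 letters at the match shown. They lay 23 bases (Serpinb8) to 181 bases (Serpinb11) before the start. The TATAAA letters, found in 12.4% of all windows, stood in 6 of the same 10 genes, and 4 of the 7 genes shown here (Serpinb5, Serpinb8, Serpinb10 and Serpinb11) had none. TTCNNNGAA, found in 7.02% of all windows, stood in 1 of the 10, Serpinb2. The letters describe these windows and say nothing of binding, and the 11 genes had a median log2 fold change of 0.017.

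**Figure D3:**
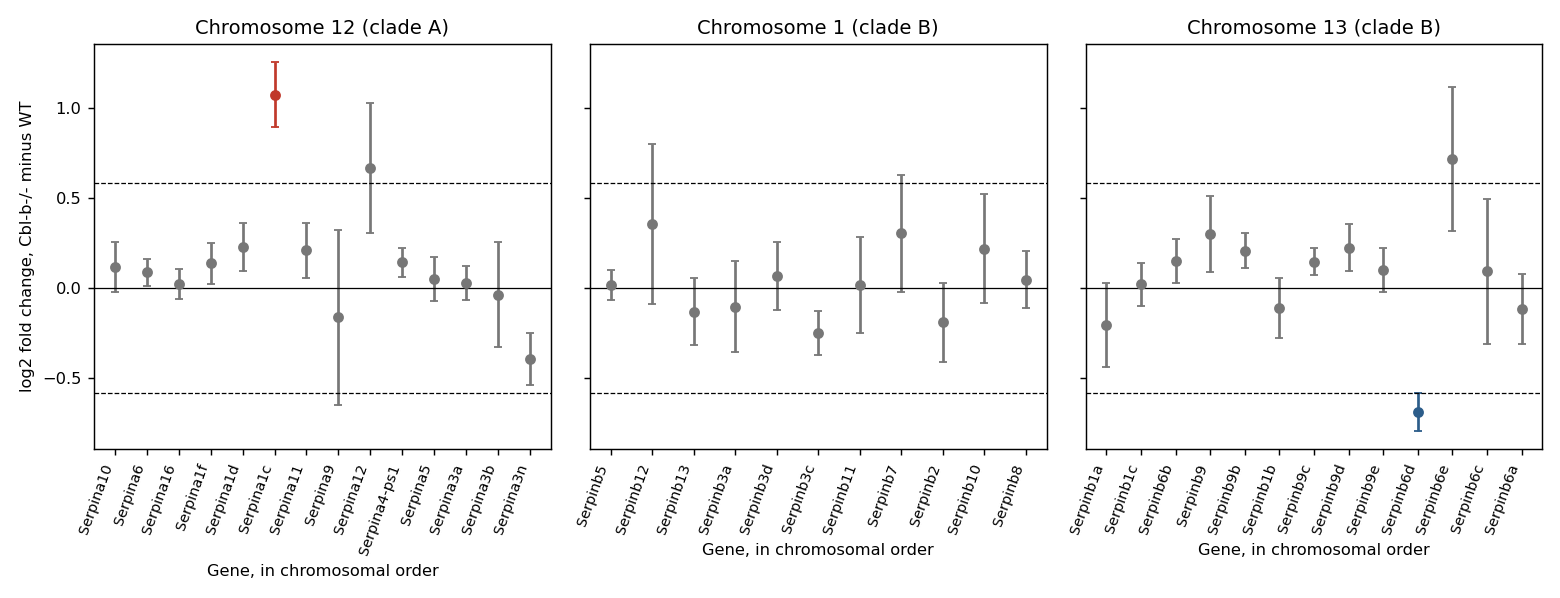
Log2 fold change (Cbl-b-/- minus WT, vertical axis) of the serpins of 3 genomic clusters in chromosomal order (horizontal axis), with points for the fitted value and whiskers for its standard error. Dashed lines mark 1.5-fold, and Serpina1c (red, 1.08) and Serpinb6d (blue, -0.69) are the coloured genes past the thresholds. Of the genes drawn, those beside Serpina1c stand at 0.23 and 0.21 and those beside Serpinb6d at 0.10 and 0.72, and serpins without a transcript cluster of their own are not drawn.

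Secreted serpins of other clades include inhibitors of coagulation, fibrinolysis and complement, and 0 of 5 listed plasma serpins met the thresholds. Serpind1, heparin cofactor II, an inhibitor of thrombin encoded on chromosome 16 as Cblb is, read 5.24, 5.17 and 5.25 in Cbl-b-/- skin, against 5.03, 5.0 and 4.95 in WT skin. Every Cbl-b-/- array lay above every WT array, and the arrays of a genotype lay within 0.08 of each other. The log2 fold change of 0.22 (standard error 0.073, unadjusted p = 0.0199, adjusted p = 0.743 by limma) was under 1.5-fold, as was its whole 95% interval (0.048 to 0.40). Its unadjusted limma p was above 0.05 without any 1 of Cbl-b-/- arrays 1 and 3 and WT arrays 2 and 3 (0.0516 to 0.0578), and after cyclic loess between arrays (0.075, with a log2 fold change of 0.16). Serping1, the C1 inhibitor of complement and contact activation, read 11.53, 11.44 and 11.69 in Cbl-b-/- skin, against 11.68, 11.43 and 11.01 in WT skin. Its log2 fold change of 0.18 (standard error 0.18) was -0.0009 without WT array 3, the array with the lowest value. Antithrombin, Serpinc1, averaged 5.46 ± 0.07 in Cbl-b-/- and 5.48 ± 0.12 in WT skin, and alpha2-antiplasmin, Serpinf2, 5.94 ± 0.04 in Cbl-b-/- and 5.78 ± 0.12 in WT skin (SD, n = 3 each). Serpine3, the measured member of clade E, averaged 5.89 ± 0.06 in Cbl-b-/- and 5.87 ± 0.07 in WT skin (SD, n = 3 each).
Serpinf1, the antiangiogenic factor PEDF, has no known protease inhibition and read 10.14, 10.08 and 10.42 in Cbl-b-/- skin, against 10.19, 10.05 and 9.78 in WT skin. The groups overlapped (0.21, standard error 0.14). Serpinh1, the collagen chaperone Hsp47 of fibroblasts, read 7.92, 8.04 and 7.93 in Cbl-b-/- skin, against 8.05, 7.90 and 7.96 in WT skin. All 6 values lay within 0.15, and its interval of -0.20 to 0.19 bounded any difference well inside 1.5-fold. The clade I genes Serpini1 (neuroserpin, of the nervous system) and Serpini2 (of the pancreas) lay at the dim end, with log2 fold changes of -0.036 and -0.081. Across the family, 30 of the 48 intervals lay inside 1.5-fold on both sides, and the other 18 reached past it on at least 1 side. The 30 include dim serpins, such as Serpini2 and Serpina7, that were not shown to lie above background. For those, a narrow interval bounds the array value and not the difference in expression.

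**Figure D4:**
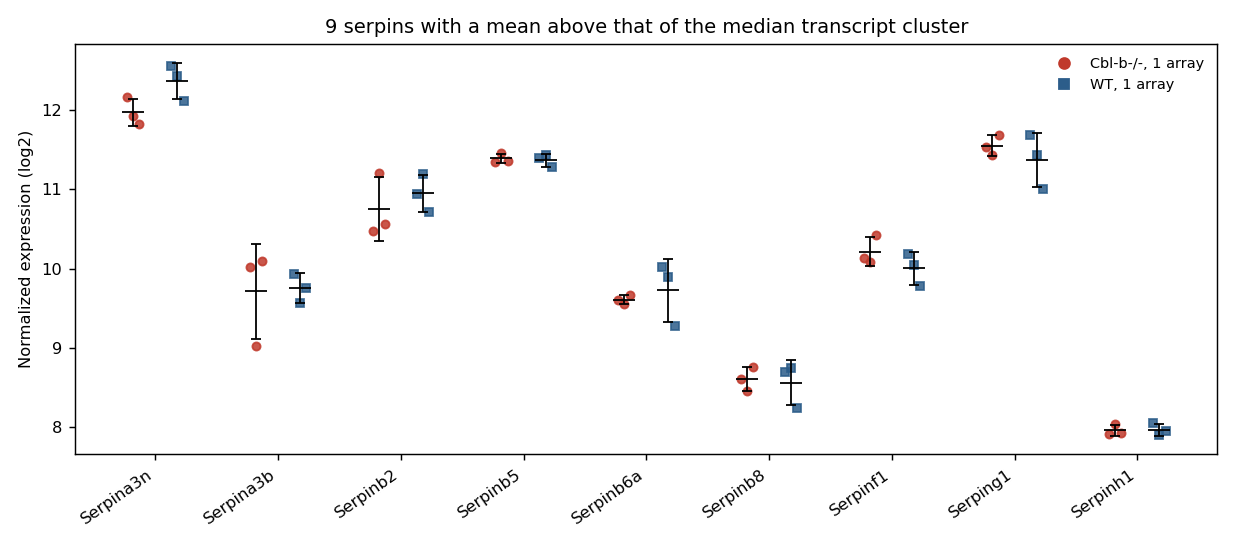
Normalized log2 expression (vertical axis) of 9 of the 15 serpins with a mean at or above the median transcript cluster (horizontal axis). Circles, left of each pair, are Cbl-b-/- skin and squares are WT skin. Points are single arrays, bars with whiskers the mean and SD of 3. The genotypes overlap in all 9, with the widest mean difference among these 9 in Serpina3n (-0.40). Serpina12, of the 15 but not drawn, had a wider difference (0.67).

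Serpins spread widely between mice of 1 genotype, with a median within-genotype SD of 0.19, against 0.13 for all transcript clusters with 1 gene symbol. The serpins that follow were named after their values were seen, for that spread. Serpina9, the widest, a B cell serpin in humans, read 5.32, 6.61 and 5.34 in Cbl-b-/- skin, against 5.52, 5.44 and 6.81 in WT skin, with 1 high array in each genotype. Serpinb12, a clade B inhibitor of trypsin-like proteases in humans, read 4.93, 6.81 and 5.85 in Cbl-b-/- skin, against 5.62, 5.68 and 5.23 in WT skin. Cbl-b-/- array 2 was its highest and Cbl-b-/- array 1 its lowest, and its log2 fold change was 0.82, past the thresholds, without array 1 and -0.12 without array 2.
Serpina12, vaspin, an adipokine that inhibits kallikrein 7, read 7.51, 6.82 and 8.16 in Cbl-b-/- skin, against 7.30, 6.69 and 6.51 in WT skin. The difference was 0.67 (log2, standard error 0.36, unadjusted p = 0.112 by limma), and 1.0, past the thresholds, without Cbl-b-/- array 2 and 0.33 without Cbl-b-/- array 3. Serpinb7, megsin, whose human counterpart is mutated in a palmoplantar keratosis, read 8.37, 7.66 and 8.82 in Cbl-b-/- skin, against 8.31, 8.09 and 7.54 in WT skin. Like Serpinb6e, both were highest on Cbl-b-/- array 3 and overlapped between the genotypes. The 5 adipocyte markers, 0 past the thresholds, had median levels of 8.96, 7.36 and 9.01 on Cbl-b-/- arrays 1 to 3, against 8.87, 8.40 and 7.82 on WT arrays 1 to 3, and their summed level on the log2 scale was 11.85, 9.99 and 11.64 on Cbl-b-/- arrays 1 to 3, against 11.41, 10.91 and 10.39 on WT arrays 1 to 3. By the median Cbl-b-/- array 3 was highest, by the sum Cbl-b-/- array 1. Their part in the Serpina12 values was not tested. Serpinb6c read 7.0, 8.08 and 6.74 in Cbl-b-/- skin, against 7.61, 7.33 and 6.6 in WT skin, and Serpinb10, a serpin of blood-forming cells, 8.37, 8.94 and 8.91 in Cbl-b-/- skin, against 8.85, 8.84 and 7.87 in WT skin.

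**Figure D5:**
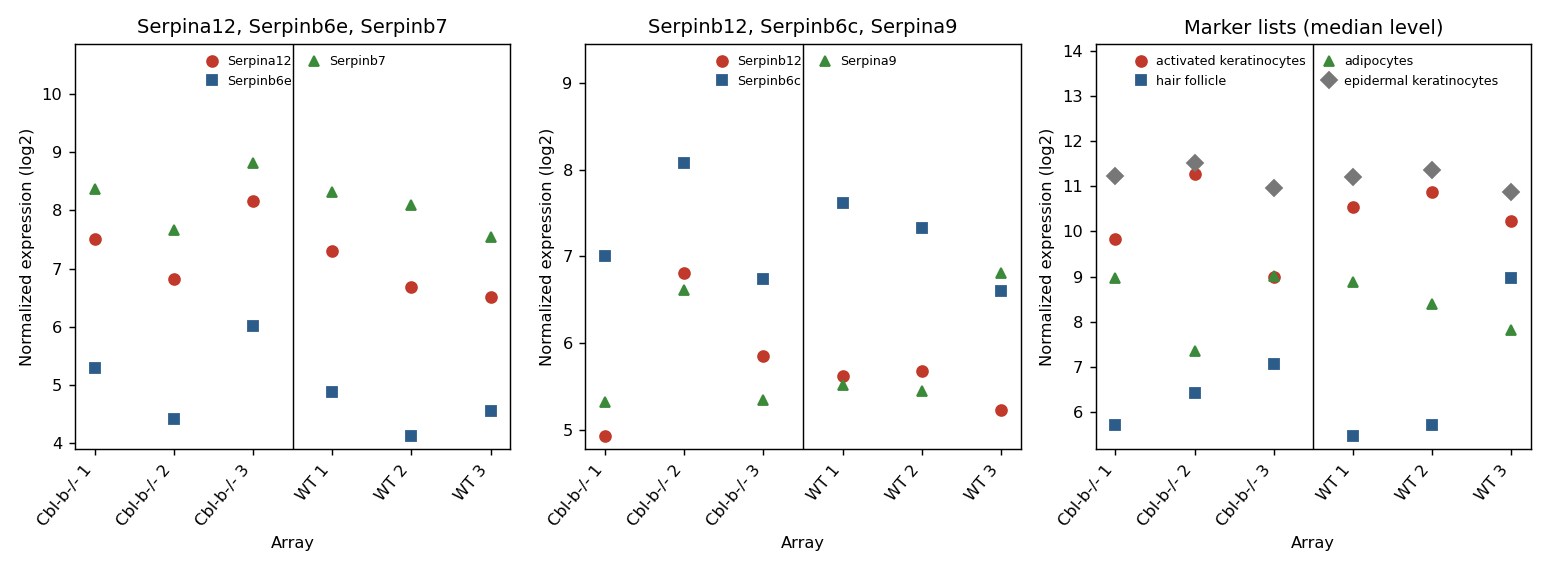
Normalized log2 expression (vertical axis) on each array (horizontal axis, Cbl-b-/- left of the line, WT right of it) of 6 serpins with a wide spread and, in the right panel, the median level of 4 marker lists. Serpina12, Serpinb6e and Serpinb7 are highest on Cbl-b-/- array 3, Serpinb12 and Serpinb6c on Cbl-b-/- array 2, and hair follicle markers stand out on WT array 3 at 8.96.

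Of 32 listed proteases that serpins inhibit, 30 were measured, and 1 was higher and 0 lower at the thresholds, where 0.276% of all transcript clusters were higher and 0.945% lower. The median log2 fold change of the 30 was 0.10, against 0.020 over all transcript clusters. That 1 was Masp1, a complement lectin pathway protease held in check by C1 inhibitor and antithrombin (0.63, standard error 0.14). An unadjusted p under 0.05 in limma was reached by 7 of the 30, all with a value above 0, where the share was 6.55% of all transcript clusters. They include urokinase, Plau, the target of Serpinb2 (0.51, standard error 0.13), the contact factor F12, a target of Serping1 (0.21, standard error 0.070), and the neutrophil proteases Elane (0.27, standard error 0.11) and Ctsg (0.25, standard error 0.081). The 7 neutrophil markers had a median log2 fold change of -0.16, with 5 of 7 below 0, and their part in the Elane and Ctsg values was not tested. The mast cell chymases Cma1 (0.51, standard error 0.19) and Mcpt4 (0.50, standard error 0.17) were the others besides Masp1. Both also stand on the list of 6 mast cell markers, of which 1, the tryptase Tpsb2, met the thresholds as higher. These 6 markers had a median log2 fold change of 0.50, with 5 of 6 above 0. Their summed level on the log2 scale was 10.02 to 10.70 on Cbl-b-/- arrays and 9.67 to 10.16 on WT arrays. The part of the mast cell markers in the protease values, Ctsg among them, was not tested. At the same thresholds, none of 10 receptors and cofactors of serpin complexes passed (median log2 fold change -0.011), nor did any of 21 measured inhibitors from other families (0.040).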

How the data were processed

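RNA from dorsal skin of 3 Cbl-b-/- and 3 WT mice was measured on 1 array per mouse. The authors normalized the arrays by RMA (background correction, quantile normalization and summary of each transcript cluster), and the deposited table holds these log2 values. Quantile normalization gives every array nearly the same distribution, which removes a shift common to all genes. Expression Console, RMA and Partek 6.5 are listed by the submitters' processing notes. Gene symbols came from the platform annotation, which can be old, and 12146 transcript clusters had none there.
From the values as deposited, Cbl-b-/- minus WT was fitted with limma 3.58.1 (R 4.3.3, lmFit and eBayes) over all 35556 transcript clusters, with Benjamini-Hochberg adjustment over all of them, and the 95% intervals are from that fit. The replicates were separate mice, so each p-value weighs the genotype difference against the spread between mice. In limma that spread is moderated towards the spread over all transcript clusters. The fit was tested on simulated data. Alternatives were the per-row test of the study's methods, an intensity trend, cyclic loess, a filter on dim transcript clusters, another transcript cluster per gene, the replicate number as a block, and leaving out each array.
The serpins, gene lists and thresholds were chosen with earlier results of these data known. Named were serpins past the thresholds, the highest-mean and most-changed serpin of each clade, those with groups apart by at least 1.25-fold, and a list set by role. Further serpins and lists were named after their values were seen, or for the lists they belong to. Means and SDs are of log2 values. Of RefSeq's 63 protein-coding serpin genes, 47 had a transcript cluster of their own (the other member is a pseudogene), and of the 16 without, those in joint transcript clusters with other serpins (among Serpina1a to Serpina1e and Serpinb9d to Serpinb9g) are reported only jointly and the rest were not analysed here. Promoter sequences came from RefSeq (GRCm38.p6) and covered 41 of the 48 members in 49 windows of 250 bases before each start. The array's build is not given in the sources used here, so no positions of transcript clusters are printed.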

Additional observations from a re-analysis of the deposited data

How the results depend on the processing

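Serpina1c and Serpinb6d, 1 higher and 1 lower, met the thresholds under the per-row test, the intensity trend and cyclic loess. Each serpin had 1 transcript cluster of its own, so another choice of transcript cluster could change none of them. Only transcript clusters at or above the median left 15 serpins, without either gene, and then 0 were higher and 0 lower, with a median log2 fold change of 0.017. With the replicate number as a block, 2 were higher (Serpina1c and Serpinb6e, at 0.7168 with an unadjusted limma p of 0.0436) and 1 was lower. The numbers were not shown to pair the mice. Deviations of same-numbered arrays correlated at 0.2332, 0.0924 and 0.2467. Each Cbl-b-/- array correlated best with the WT array of its own number, for array 1 narrowly (0.2332, against 0.2319 with WT array 2). WT arrays 1 and 3 also correlated best by number, and WT array 2 correlated best with Cbl-b-/- array 1. The block moved the count over all transcript clusters to 453, against 434. With 1 array left out, 1 to 3 serpins were higher and 1 lower each time, and the median was 0.0616 to 0.0915, against 0.0573 with all arrays. Serpinb12 (0.8196) joined without Cbl-b-/- array 1, and Serpina12 (1.0029) and Serpinb6e (1.1275) without Cbl-b-/- array 2, where 790 of all transcript clusters were called.
The per-row test, the trend, the block and the filter keep each log2 fold change by construction and could change only calls, and among the named serpins that occurred for Serpinb6e under the block and for those the filter removed. Cyclic loess can move the values, and of 28 it kept the sign of 26 and turned Serpinb5 to -0.0072 and Serpine3 to -0.0315. Leaving out 1 array kept the sign and the call of 142 such values and turned the sign of 23. It made 3 stronger with the same sign (Serpinb12, Serpina12 and Serpinb6e, as given above). The size could move where the sign was kept, over the 6 omissions from 0.0356 to 0.6139 for Serpinb7 and from 0.0868 to 0.5253 for Serpinb9. The turned values fell in serpins whose log2 fold changes ranged over the 6 omissions from -0.3893 to 0.1213 (Serpinb3a), -0.0301 to 0.0522 (Serpinb5), -0.3460 to 0.0264 (Serpinb6a), -0.0788 to 0.0413 (Serpinc1), -0.0231 to 0.05 (Serpine3), -0.0009 to 0.3334 (Serping1), -0.0452 to 0.0323 (Serpinh1), -0.1539 to 0.0774 (Serpini1), -0.5918 to 0.2797 (Serpina9), -0.1217 to 0.8196 (Serpinb12), -0.3125 to 0.3586 (Serpinb6c), -0.1067 to 0.4046 (Serpinb10) and -0.2331 to 0.3067 (Serpina3b). The cause was not tested. Dim serpins were not shown above background, which limits their values.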
